A study of Mus musculus with 12 samples.

Results

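The intervals described here are the BAP1 ChIP-seq peaks listed in 2 libraries of mouse bone marrow cells, 1 with the mutant ASXL1 (1-590) 10RA and 1 with ASXL1 (1-590). They were chosen by the library titles and by position on chromosomes 1 to 19, X and Y, which left 4875 distinct intervals with 10RA and 3572 with 1-590, or 8447 of the 159554 intervals in the 12 lists of the series. Both libraries came from purified c-Kit+ cells, labelled as haematopoietic stem and progenitor cells of mock genotype, that had been transduced with a retrovirus for HA-tagged BAP1 and a retrovirus for ASXL1. In the 10RA library the second virus carried residues 1 to 590 of ASXL1 with the change named 10RA, which the labels call condensation-impaired. In the 1-590 library it carried the same residues without that change. BAP1 was thus supplied from a virus in both, and cells without added ASXL1 were not in this ChIP batch. The sample descriptions name an antibody to BAP1 and the protocol an antibody to the HA tag. The lists hold no measure of BAP1 or ASXL1 protein, so neither the constructs nor the cell type could be checked from them. Each condition had 1 library, so no difference below has a replicate check and none was tested. Wilson 95% intervals are given for shares, and they cover counting error only. They treat neighbouring peaks of a locus as separate draws, so they are probably too narrow for peaks listed in both libraries.

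BAP1 is the catalytic subunit of the Polycomb repressive deubiquitinase, which takes ubiquitin off histone H2A, and ASXL1 or a paralogue is needed for that activity. The ubiquitin, H2AK119ub, is placed by Polycomb repressive complex 1. C-terminal truncations of ASXL1 are frequent in myeloid malignancies and leave an N-terminal protein that still binds BAP1. The series set 10RA against 1-590 to ask how condensation bears on the chromatin occupancy of BAP1.

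Sequences of both kinds of interval are shown because shared and private intervals differed in repeat structure and private intervals of the 2 lists differed in base composition. They are read from the plus strand of GRCm39, 5′ to 3′. The interval of rank 10 with 10RA, which was shared, lay in a repeat with a period of 234 bases, the unit length of the mouse major satellite. In the 300 bases shown the capitals mark a run of 66 bases that returns unchanged 234 bases further on.
Shared, rank 10 with 10RA, chr9:3032293-3032592: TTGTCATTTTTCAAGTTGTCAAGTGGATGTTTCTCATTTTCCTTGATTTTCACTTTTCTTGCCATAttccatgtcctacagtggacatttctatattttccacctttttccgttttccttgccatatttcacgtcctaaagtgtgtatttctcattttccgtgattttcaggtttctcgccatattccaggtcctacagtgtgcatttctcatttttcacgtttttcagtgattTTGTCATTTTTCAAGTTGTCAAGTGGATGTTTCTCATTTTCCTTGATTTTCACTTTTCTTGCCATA
In the shared interval of rank 18 with 10RA, at the end of the X chromosome, the period was 31 bases, and the capitals mark every second unit.
Shared, rank 18 with 10RA, chrX:168777290-168777475: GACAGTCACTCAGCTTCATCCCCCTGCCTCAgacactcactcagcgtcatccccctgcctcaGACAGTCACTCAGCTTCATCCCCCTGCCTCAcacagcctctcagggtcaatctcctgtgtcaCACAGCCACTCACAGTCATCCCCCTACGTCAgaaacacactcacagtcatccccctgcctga
The private intervals shown are the 3 of each list with the best p among those whose sequence occurs once in the genome and which lay over 100 kb from any interval of the other list. Each is given as 151 bases centred on the summit, with G and C in capitals. These made up 53.0%, 48.3% and 41.1% of the bases with 10RA, against 29.1%, 29.1% and 32.5% with 1-590.
Private with 10RA, rank 64, chr8:55801006-55801156: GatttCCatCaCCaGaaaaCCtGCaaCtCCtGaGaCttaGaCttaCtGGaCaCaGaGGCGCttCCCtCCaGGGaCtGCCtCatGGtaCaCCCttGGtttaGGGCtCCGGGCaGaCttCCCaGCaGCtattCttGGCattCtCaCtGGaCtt
Private with 10RA, rank 117, chr6:131389147-131389297: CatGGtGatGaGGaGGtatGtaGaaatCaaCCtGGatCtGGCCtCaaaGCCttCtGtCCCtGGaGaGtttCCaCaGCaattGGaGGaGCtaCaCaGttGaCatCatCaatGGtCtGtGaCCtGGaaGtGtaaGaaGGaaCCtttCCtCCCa
Private with 10RA, rank 125, chr6:102549381-102549531: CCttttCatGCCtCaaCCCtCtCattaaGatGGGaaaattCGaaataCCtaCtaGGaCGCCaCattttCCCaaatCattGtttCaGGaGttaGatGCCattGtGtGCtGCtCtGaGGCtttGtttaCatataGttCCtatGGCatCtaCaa
Private with 1-590, rank 82, chr15:54051508-54051658: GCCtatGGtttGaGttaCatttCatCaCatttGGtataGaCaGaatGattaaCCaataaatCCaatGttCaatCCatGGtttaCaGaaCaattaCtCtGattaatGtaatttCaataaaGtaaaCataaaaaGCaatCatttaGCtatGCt
Private with 1-590, rank 87, chr11:29919245-29919395: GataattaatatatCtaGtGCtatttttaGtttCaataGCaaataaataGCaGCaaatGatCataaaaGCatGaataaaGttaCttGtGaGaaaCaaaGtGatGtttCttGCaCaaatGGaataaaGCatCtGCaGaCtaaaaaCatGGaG
Private with 1-590, rank 95, chr19:7415555-7415705: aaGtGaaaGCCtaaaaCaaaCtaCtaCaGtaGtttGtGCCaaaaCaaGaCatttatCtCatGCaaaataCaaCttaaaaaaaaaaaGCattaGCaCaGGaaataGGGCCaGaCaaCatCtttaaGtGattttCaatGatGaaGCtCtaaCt

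The libraries were not of equal depth. The genome background that the peak caller used, recovered from fold and p, was 5.46 fragments per base with 10RA and 4.24 with 1-590, a ratio of 1.29. Total read numbers are not given in the lists. Intervals were called down to a p of 0.001, which took 14 fragments at the summit with 10RA and 12 with 1-590. The median interval had 17 fragments with 10RA and 15 with 1-590, and the largest had 514 and 433. At a q of 0.05 there were 795 intervals with 10RA (16.3%) and 433 with 1-590 (12.1%). Most of the intervals in both lists therefore stood on a few fragments above the threshold, and the shortest were 221 bases with 10RA and 254 with 1-590.

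Few intervals were listed in both libraries, and those that were stood at the top of both lists. Of the 4875 intervals with 10RA, 150 overlapped an interval with 1-590 by 1 base or more, a share of 3.08% (2.63 to 3.60). Of the 3572 intervals with 1-590, 145 overlapped one with 10RA, a share of 4.06% (3.46 to 4.76). The private intervals, which met none of the other list, numbered 4725 with 10RA and 3427 with 1-590. Between them the lists covered little of the genome, 0.0550% with 10RA and 0.0463% with 1-590.

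When both lists were cut to their best intervals by p, so that they were of equal length, the overlap depended on how many were kept. With 100 in each, 58.0% of those with 10RA (48.2 to 67.2) met one of those with 1-590, and with 250 it was 36.8% (31.1 to 42.9). With 500 in each, 116 intervals with 10RA did so, or 23.2% (19.7 to 27.1), and 22.0% from the side of 1-590. The share was 12.6% at 1000, 7.10% at 2000 and 4.20% at 3572, the full length of the 1-590 list. Cutting the longer list to the length of the shorter therefore left the shared share close to the 4.06% found from the 1-590 side.

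**Figure D1:**
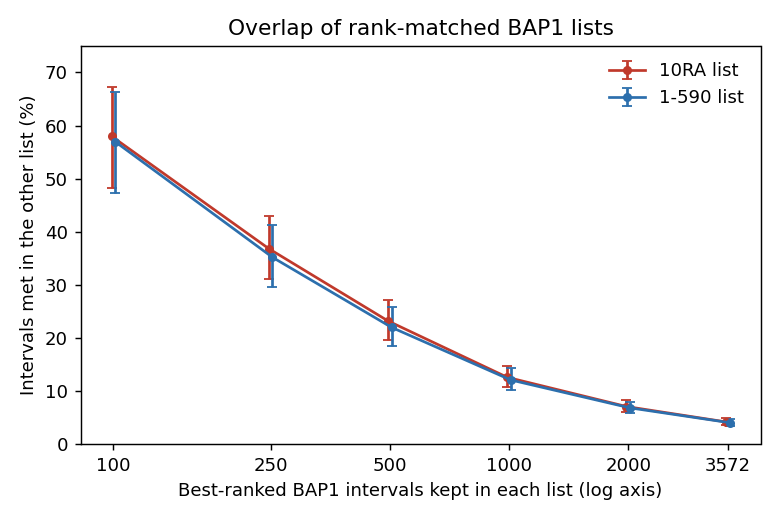
Share of BAP1 intervals that overlap the other list (y axis, %) when both lists are cut to the same number of best-ranked intervals (x axis, log scale), for the 10RA list and the 1-590 list, with Wilson 95% intervals as bars. Both lines fall together, and on the 10RA side the share is 58.0% at 100 intervals and 4.20% at 3572.

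By rank within a list, set against the whole of the other list, 42 of the 50 leading intervals with 10RA were shared (84.0%), against 48 of the 50 leading ones with 1-590 (96.0%). From rank 101 to 250 the share was 28.0% with 10RA (21.4 to 35.7) and 14% with 1-590 (9.34 to 20.5). From rank 251 to 500 it was 6.80% in both, and from 2001 to 3572 it was 0.318% in both. The last 1303 intervals of the 10RA list, beyond the length of the 1-590 list, held none that was shared (0%, 0 to 0.294).

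At the shared intervals the fragment numbers of the libraries moved together. Over the 150 shared intervals with 10RA, each set beside its partner with 1-590, Spearman's rho of the summit fragments was 0.863, given as a description, since neighbouring intervals share a locus and each library has 1 depth. The ratio of fragments with 10RA to fragments with 1-590 had a median of 1.30 (quartiles 1.10 and 1.47), beside the ratio of genome backgrounds of 1.29. Fragments were higher with 10RA at 124, lower at 21 and equal at 5. Measured against the background ratio the intervals divided almost evenly, with 77 of 150 above it. The ratio ran from 0.5 to 2.71. Some intervals with 1-590 were the partner of more than 1 interval with 10RA. At the ratio of 0.5, 29 fragments with 10RA were set beside a partner of 58, which was also the partner of an interval of 44 (ratio 0.759).

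**Figure D2:**
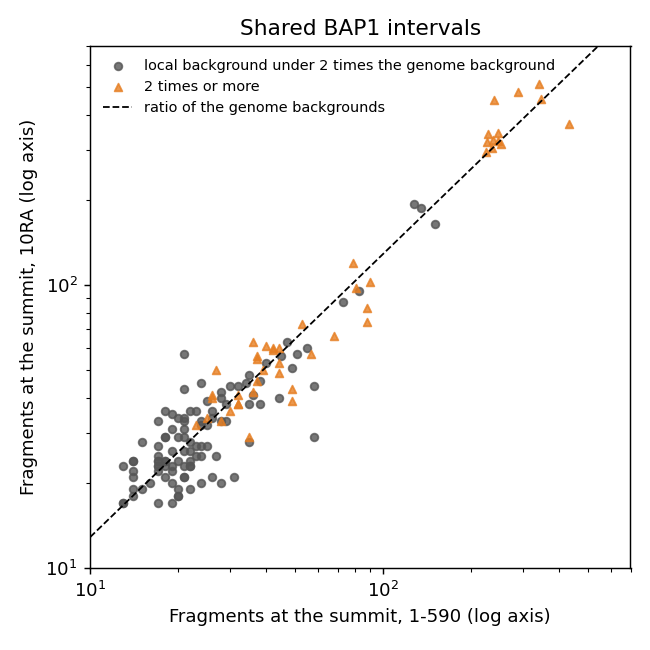
Fragments at the summit of each of the 150 shared BAP1 intervals with 10RA (y axis, log scale) and at its partner with 1-590 (x axis, log scale). Triangles are intervals whose local background with 10RA was 2 or more times the genome background, circles the others, and the dashed line is the ratio of the genome backgrounds, 1.29, along which the points lie.

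The 10 shared intervals that ranked best in both lists lay mostly between genes. The pair nearest the top lay together on chromosome 2, over 1 Mb from the nearest protein-coding TSS, that of Lrrc4c. At chromosome 2, 98492718 to 98493098, the summit held 454 fragments with 10RA and 345 with 1-590, on a local background of 62.1 and 55.1 fragments per base. At 98496909 to 98497644 it held 372 with 10RA and 433 with 1-590, so this interval was among the 21 with fewer fragments with 10RA.

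An intron of Sfi1, which encodes a centrin-binding protein of the spindle poles, had 194 fragments with 10RA and 128 with 1-590 (chromosome 11, 3122327 to 3122830). An exon of Lars2, which encodes the mitochondrial leucyl-tRNA synthetase, had 165 fragments with 10RA and 150 with 1-590 (chromosome 9, 123290877 to 123291255). Both stood on low local backgrounds, 8.04 and 10.0 fragments per base with 10RA. Both were also listed in all 10 other libraries of the series.

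The start of chromosome 9 held 3 of the leading 10, between 3006760 and 3032940, in sequence of 13 to 32 copies. Their fragments were 187, 98 and 87 with 10RA and 135, 81 and 73 with 1-590. These intervals include the 234-base repeat printed above, and 2 of the 3 had a self-match at that period. A further interval, at chromosome 9, 35216542 to 35216851, had 120 fragments with 10RA and 79 with 1-590. One at chromosome 3, 5925414 to 5925868, had 95 fragments with 10RA and 83 with 1-590.

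The last of the 10, at chromosome 17, 40154097 to 40157640, reached 514 fragments with 10RA and 340 with 1-590. Its local background was 167 fragments per base with 10RA and 143 with 1-590, over 30 times the genome background in both. It overlaps the annotated ribosomal RNA gene Rn18s-rs5 (40157244 to 40159092), a sequence related to the 18S RNA of the ribosome.

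The shared intervals were gathered in a few places. Intervals within 1 Mb of each other made 41 loci, of which 22 had 1 interval in each list. The 10 loci with the most shared intervals held 102 of the 150 with 10RA (68.0%) and 100 of the 145 with 1-590 (69.0%), and spanned 5.69 Mb in all, or 0.215% of the genome. They held 93 private intervals with 10RA and 18 with 1-590 as well. Chromosomes 15 and 19 had no shared interval. On chromosome Y, of 88.5 sequenced Mb, there were 5 shared intervals with 10RA and 3 with 1-590, and 1 private interval with 10RA and 0 with 1-590.

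The largest locus, at chromosome 4, 146443957 to 147610996, had 20 shared intervals in each list, and 26 private ones with 10RA against 8 with 1-590. It holds 10 protein-coding genes, 9 of them zinc finger genes, a class of DNA-binding proteins many of which silence transposons through a KRAB domain. Fragments reached 57 in both libraries, and GC content was low, with a median of 37.9%.

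Several other loci also hold gene families. The locus at chromosome X, 30796048 to 32527999, had 7 shared intervals in each list among the Btbd35f and Spin2 genes. That at chromosome 1, 88139709 to 88207911, had 6 with 10RA and 5 with 1-590. It spans the Ugt1a genes, whose products conjugate bilirubin and drugs to glucuronic acid, and Hjurp, the chaperone that deposits the centromeric histone CENP-A. At chromosome 17, 13401203 to 13811765, around Tcp10c and the kinase genes Smok2a and Smok2b, 11 shared intervals with 10RA stood beside 12 with 1-590, and 32 private ones with 10RA beside 2 with 1-590.

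Around Sfi1 and Drg1, at chromosome 11, 3051054 to 3149947, there were 12 shared intervals with 10RA and 11 with 1-590. The local background there reached 224 fragments per base with 10RA and 174 with 1-590, which was 41.0 times the genome background at the Sfi1 promoter with 10RA. Summits reached 480 fragments with 10RA and 289 with 1-590. All 12 intervals with 10RA met an ASXL1 peak and all 12 an H2AK119ub peak. Around Mid1, an E3 ubiquitin ligase gene that crosses the pseudoautosomal boundary of the X in mice, 6 shared intervals in each list lay at 168759247 to 168787735, 4 of them in introns of the gene and 2 outside it, with up to 53 fragments with 10RA and 40 with 1-590. The 31-base repeat printed above is from 1 of those outside the gene.

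Over all ranks together, repeated sequence was more frequent in the shared class than in either private class. Copy number was the median count in the genome of the 32-base words of an interval. It was 1 at 46.7% of shared intervals with 10RA (38.9 to 54.6) and 46.2% of those with 1-590 (38.3 to 54.3), against 92.9% of private intervals with 10RA and 95.01% with 1-590. Of 52994 windows placed every 50 kb along the genome, 82.8% had a copy number of 1. A copy number of 10 or more was found at 14% of shared intervals with 10RA and 15.9% with 1-590, and at 2.37% of private intervals with 10RA and 2.10% with 1-590. The genome windows had 12.1%, so the private classes lay below the genome and the shared ones close to it. High copy numbers were most frequent at the head of both lists. Of all intervals with 10RA, 10 or more copies were found at 24% from rank 51 to 100 and 4% from rank 101 to 250. With 1-590 these shares were 16% and 3.33%. Leading private intervals with 10RA had 11 to 17 copies at ranks 17, 20, 39, 42 and 44. Those at ranks 27, 40 and 46 had 1 or 2. Copy number was not compared between the classes at equal rank. Alignment settings that govern repeated reads are not given in the sources used here, and their part in these shares was not tested.

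Over all ranks together, tandem repeats set the shared class further apart. A window counted as tandem when 50% or more of its bases matched the bases at one fixed offset of 2 to 400. This held at 18% of shared intervals with 10RA (12.7 to 24.9) and 15.9% with 1-590 (10.8 to 22.7). The commonest offset was 234 bases, at 12 of the 27 tandem shared intervals with 10RA and 10 of the 23 with 1-590. Tandem windows of any offset made up 0.656% of private intervals with 10RA, 0.292% of those with 1-590 and 0.647% of genome windows. Of the 8 private intervals of best p with 10RA, those of rank 17 and 27 were tandem and the others were not. The tandem shares of the classes were not compared at equal rank. Satellite-rich stretches, both tandem and of 10 or more copies, held 12 of the 150 shared intervals with 10RA (8%, 4.64 to 13.5) and 11 of the 145 with 1-590 (7.59%). With 10RA all of them but that at chromosome 7, 64118167 to 64119132, lay at chromosome 9, 3000080 to 3038195. The share with 10RA thus rests almost wholly on the start of chromosome 9. Among private intervals they held 4 with 10RA (0.0847%) and 1 with 1-590 (0.0292%), beside 0.226% of genome windows. With a copy number of 100 or more in place of 10, 0 of the 150 shared intervals with 10RA were satellite-rich.

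Of the shared intervals, 20% with 10RA and 18.6% with 1-590 lay within 1 Mb of the gap that opens a chromosome, where the mouse centromere lies. This was so for 1.02% of private intervals in each list and for 0.776% of genome windows. Most of the shared ones with 10RA came from few places. The start of chromosome 9 (3000080 to 3038195) held 12, and the locus around Sfi1 (chromosome 11, 3051054 to 3149947) held 12. A local background of 2 or more times the genome background stood under 30.7% of shared intervals with 10RA and 29.0% with 1-590, against 0.720% and 0.379% of the private ones. Without such intervals 14.6% (11.8 to 17.97) of the best 500 with 10RA met the best 500 with 1-590, an alternative chosen after the data were seen.

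Where intervals lay among genes also separated the classes. Each summit was assigned to a promoter (within 2 kb of a protein-coding TSS), else to an exon, an intron or the space between genes. Promoters held 7.33% of shared intervals with 10RA (4.14 to 12.7) and 7.59% with 1-590 (4.29 to 13.1). They held 1.86% of private intervals with 10RA (1.51 to 2.29) and 1.72% with 1-590 (1.34 to 2.21), below the 3.09% of the genome that promoters make up. Exons held 7.33% of shared intervals with 10RA and 7.59% with 1-590, against 4.59% of private intervals with 10RA, 3.15% with 1-590 and 3.88% of the genome. The shared promoter shares rest on 11 intervals in each list. When a promoter reached only 1 kb from the TSS, it held 2.67% of shared intervals with 10RA (1.04 to 6.66), an interval that holds the 1.56% of the genome such promoters make up.

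Introns held 18% of shared intervals with 10RA and 16.6% with 1-590, where the genome share is 34.4%. Among private intervals introns held 34.1% with 10RA and 30.2% with 1-590. Space between genes held 67.3% of shared intervals with 10RA (59.5 to 74.3) and 68.3% with 1-590. It held 59.4% of private intervals with 10RA (58.0 to 60.8) and 65.0% with 1-590 (63.3 to 66.5), beside 58.6% of the genome. The private intervals with 10RA were thus spread over introns and intergenic space much as the genome is, and those with 1-590 lay more often between genes. The excess of shared intervals between genes over the genome did not hold in every setting. When all annotated genes were used, 32.7% of shared intervals with 10RA (25.7 to 40.5) lay between genes and 21.3% at promoters (15.5 to 28.6), beside 40.3% and 9.93% of the genome. Among the 32 shared intervals with 10RA of 40 to 45% GC, 46.9% (30.9 to 63.6) lay between protein-coding genes, beside 58.2% of genome windows of that GC content, a choice made after the data were seen.

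**Figure D3:**
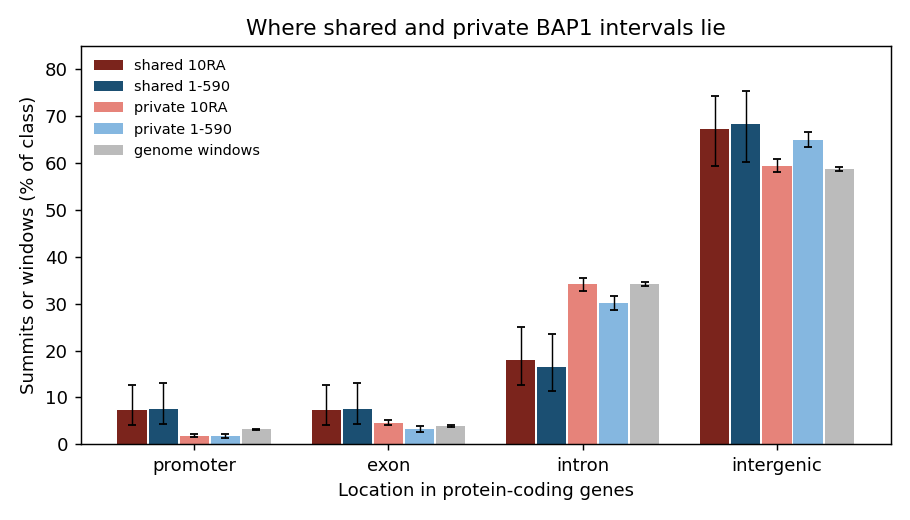
Share of BAP1 summits (y axis, % of class) in promoters, exons, introns and intergenic space of protein-coding genes, for shared intervals with 10RA and with 1-590, private intervals with 10RA and with 1-590, and genome windows, with Wilson 95% intervals as error bars. Shared intervals stand above the genome windows at promoters and below them in introns, where private intervals with 10RA are at 34.1%.

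The median distance to a protein-coding TSS was 38648 bases for shared intervals with 10RA and 38626 for those with 1-590. Private intervals lay further off, at a median of 70760 bases with 10RA and 102518 with 1-590, and genome windows at 76351. Over 500 kb from any TSS lay 11.0% of private intervals with 10RA (10.1 to 11.9), 15.8% with 1-590 (14.6 to 17.0) and 11.96% of genome windows. Private intervals of one list were seldom neighbours of the other list. Within 10 kb of a summit of the other list lay 4.93% of private intervals with 10RA and 4.87% with 1-590, and the median distance to it was 263279 bases with 10RA and 184903 with 1-590.

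The private classes also differed in base composition. Over 301 bases at the summit, the median GC content was 45.5% for private intervals with 10RA (quartiles 41.2 and 49.5) and 35.2% for those with 1-590 (quartiles 30.6 and 40.4). Genome windows had 41.5%, between the private classes, and shared intervals had 42.7% with 10RA and 41.2% with 1-590. A GC content under 40% was found at 20.4% of private intervals with 10RA (19.3 to 21.6), 73.9% with 1-590 (72.4 to 75.4) and 42.5% of genome windows.

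**Figure D4:**
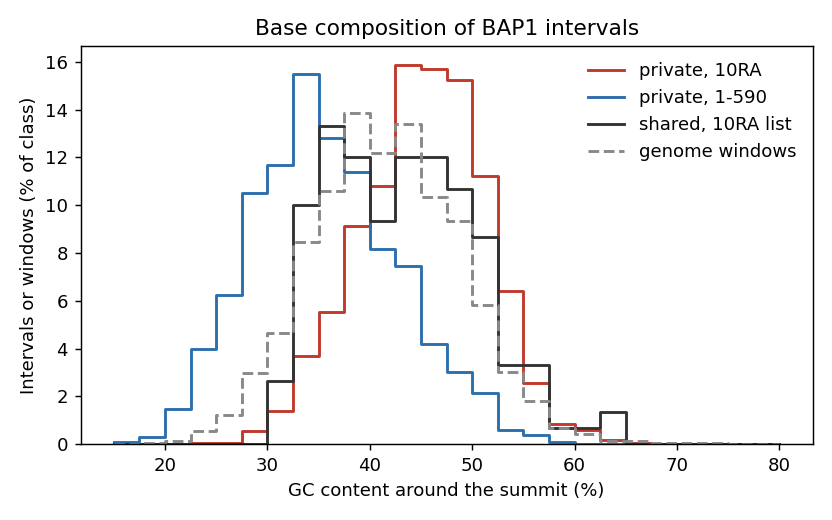
Distribution of GC content over 301 bases at the summit (x axis, %) for private BAP1 intervals with 10RA and with 1-590, shared intervals of the 10RA list and genome windows (dashed), as percent of each class per step (y axis). Private intervals with 10RA lie to the right of the genome windows, with a median of 45.5%, and those with 1-590 to the left, at 35.2%.

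By GC band the numbers ran in opposite directions. Below 30% GC there were 33 private intervals with 10RA and 773 with 1-590, or 1.27 and 29.7 per 100 genome windows of that composition. From 35 to 40% the lists were near each other, with 693 with 10RA and 829 with 1-590. From 50 to 55% there were 834 with 10RA and 94 with 1-590, or 17.7 and 2 per 100 windows. The ratio per window of 10RA to 1-590 was 0.0427 below 30% GC and 8.87 from 50 to 55%, and it was higher in each band than in the band below.

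Over shared and private intervals together, the median was higher with 10RA in every rank group that both lists had. In the leading 50, 42 with 10RA and 48 with 1-590 were shared, so that group does not describe the private classes. With 10RA the median GC of all intervals lay between 44.4% and 45.7% in each of 8 rank groups, from the leading 50 to the last 1303. With 1-590 it was 40.03% in the leading 50 and between 34.1% and 38.0% in the other groups. Among private intervals with a q of 0.05 or less the medians were 46.2% with 10RA (n = 662) and 33.4% with 1-590 (n = 316). Among those of copy number 1 they were 45.5% with 10RA and 34.9% with 1-590. On the X chromosome, where genome windows had a median of 38.9% GC, private intervals numbered 1.52 per Mb with 10RA and 1.55 with 1-590, against 1.78 and 1.29 over all chromosomes.

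In the ASXL1 ChIP the order of the constructs was the other way round. The median GC was 43.2% over the 4584 ASXL1 intervals with 10RA and 47.2% over the 8370 with 1-590. All 4 ChIP libraries are single, and GC content and library cannot be told apart in them. Recovery of fragments by GC content was not measured in either BAP1 library, and its part in the private lists was not tested.

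Because GC content varies with gene density, the location of private intervals was also compared within the band of 40 to 45% GC. There 62.4% of 1261 private intervals with 10RA (59.7 to 65.0) and 60.4% of 535 with 1-590 (56.2 to 64.4) lay between genes, beside 58.2% of genome windows. The median distance to a TSS in that band was 82006 bases with 10RA, 56365 with 1-590 and 70166 for genome windows. In both measures the order of the lists in this band was the opposite of that over all private intervals. The band was chosen after the data were seen, and its intergenic shares were within counting error of each other. Across bands the intergenic order varied. The intergenic share was higher with 10RA also from 30 to 35% and 45 to 50% GC, and lower in the other bands. The median TSS distance was longer with 10RA in every band below 55% GC. Among private intervals with a q of 0.05 or less, 65.7% with 10RA and 64.9% with 1-590 lay between genes, and among the private ones of the best 500 of each list 67.97% with 10RA and 66.2% with 1-590 did, so both differences were within counting error.

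Over all ranks together, shared intervals were mostly present in the other libraries of the series as well, and private ones were not. The classes were not compared at equal rank. With 10RA the shared intervals had a median length of 507 bases and a median of 34.5 fragments. For private ones these medians were 264 bases and 17 fragments. Any of the 2 ASXL1 lists was met by 92.7% of shared intervals with 10RA (87.3 to 95.9) and 91.0% with 1-590 (85.3 to 94.7). It was met by 3.07% of private intervals with 10RA (2.61 to 3.60) and 0.905% with 1-590 (0.638 to 1.28). Any of the 8 H2AK119ub lists, made by CUT&RUN in other batches, was met by 69.3% of shared intervals with 10RA and 69.7% with 1-590. For private intervals these shares were 4.55% with 10RA (3.99 to 5.18) and 0.992% with 1-590 (0.711 to 1.38). No share of genome windows was computed for the ASXL1 and H2AK119ub lists. Whether the private shares lie above or below that of the genome was therefore not tested.

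Of the shared intervals, 15 with 10RA and 17 with 1-590 were listed in all 10 other libraries, and 9 with 10RA and 8 with 1-590 in none. Of the private intervals, 93.4% with 10RA and 98.3% with 1-590 were in none of the 10. In all 10 stood 1 private interval with 10RA and 0 with 1-590 (0%, 0 to 0.112). The private intervals of higher confidence met the other libraries more often. Each of the 8 private intervals of best p with 10RA was listed in 1 to 9 other libraries. The 8 with 1-590 were listed in 0 to 4. With a q of 0.05 or less, ASXL1 lists were met by 14.4% with 10RA (11.9 to 17.2) and 3.80% with 1-590 (2.19 to 6.52), and H2AK119ub lists by 10.4% with 10RA and 2.22% with 1-590. The H2AK119ub lists of the 1-590 set had median GC contents of 54.8% to 56.8%, above both BAP1 lists, and the part of base composition in these shares was not tested.

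By single library, shared intervals with 10RA met the ASXL1 list of 10RA at 76% and that of 1-590, the longer list, at 86.7%. The 4 H2AK119ub lists of the 1-590 set were met by 14.7% to 25.3% of shared intervals with 10RA. The 4 of the 1-1067 set, which hold fewer intervals, were met by 37.3% to 50% of them. Both vector libraries, without added ASXL1, were among these, at 14.7% and 41.3%.

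**Figure D5:**
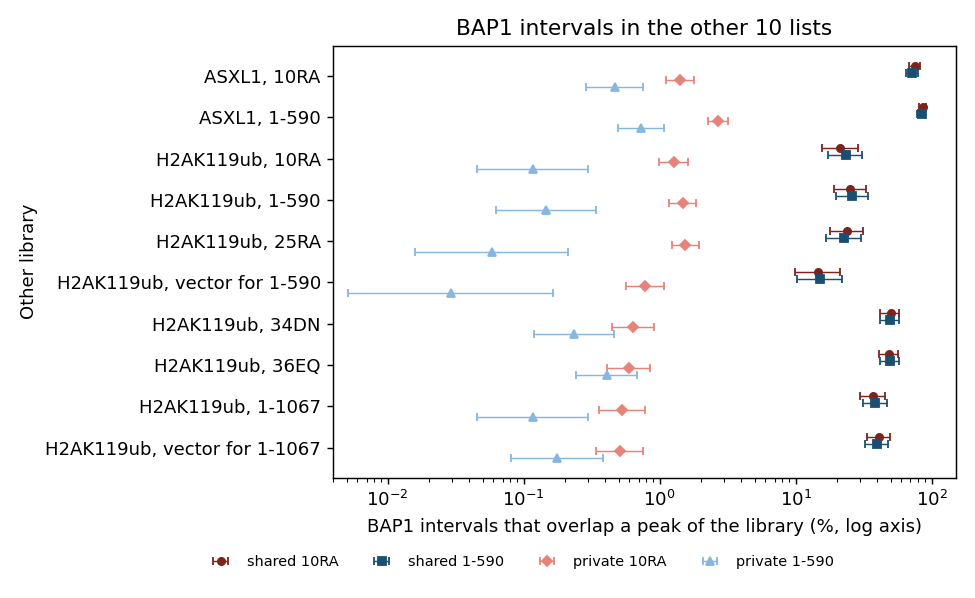
Share of BAP1 intervals that overlap a peak of each of the other 10 libraries by 1 base or more (x axis, %, log scale; libraries on the y axis), for shared intervals with 10RA and with 1-590 and private intervals with 10RA and with 1-590, with Wilson 95% intervals. The shared classes lie at 14.7% or above in every library and the private classes at 2.69% or below.

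With 10RA the private interval of best p was at chromosome 9, 3035859 to 3036099, in the satellite stretch described above, with 63 fragments and 2032 bases from the nearest summit with 1-590. The next was at chromosome 6, 47629866 to 47630193, 57730 bases from the TSS of Ezh2, the H3K27 methyltransferase of Polycomb repressive complex 2. It had 50 fragments on the genome background of 5.46, a copy number of 17, and was listed in 9 of the 10 other libraries, although the nearest interval with 1-590 lay 582520 bases away. A private interval 27041 bases from Cyp2c29, a cytochrome P450 gene, had 39 fragments and a copy number of 11.

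With 1-590 the best private interval was also in the satellite stretch of chromosome 9 (3025497 to 3026020, 49 fragments, copy number 50), 1384 bases from a summit with 10RA. The next were at chromosome 16, 3105733 to 3105995 (39 fragments, copy number 1, 15693 bases from a summit with 10RA), and in an intron of the oocyte homeobox gene Obox1 (24 fragments, copy number 12), and neither was in any other library. An exon of Mid1 had 22 fragments and an intron of Sp140l2 had 21. An interval in introns of Drg1 and Sfi1 had 253 fragments on a local background of 171 per base, a fold of 1.48.

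Among private intervals of copy number 1, the best with 10RA was near Tcp10c (51 fragments) and 3532 bases from a summit with 1-590. The best that stood over 100 kb from any interval with 1-590 was the one of rank 64 printed above, 393362 bases from the TSS of Gpm6a, a neuronal membrane glycoprotein gene. It had 33 fragments and was listed in 4 other libraries. The 2 other sequences printed for 10RA, of 27 fragments near the cold shock domain gene Ybx3 and 25 in an intron of the contactin gene Cntn3, were in no other library. With 1-590 the 3 printed sequences had 20, 22 and 20 fragments. They lay 90492 bases from the TSS of Tnfrsf11b, which encodes osteoprotegerin, in an intron of Eml6 and in an intron of the reticulon gene Rtn3, and none was in another library.

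Few promoters had a listed summit. A summit lay within 2 kb of the TSS of 100 genes with 10RA (0.46% of 21738 protein-coding genes) and of 70 with 1-590 (0.322%), and 12 genes (0.0552%) had one in both. For 10 of the 12, shared intervals of both lists had their summits at the promoter. They were AY761185, Gm47996, Gm5799, Gm8126, Hjurp, Prl2c3, Sfi1, Spata31e2, Tmem267 and Ugt1a1. Tmem267 had 57 fragments with 10RA and 21 with 1-590, and Spata31e2 had 56 with 10RA and 45 with 1-590. Ugt1a1 had 59 with 10RA and 42 with 1-590, on local backgrounds of 31.6 and 21.3 fragments per base. Hjurp had 38 fragments with 10RA and 32 with 1-590. At Them7 the promoter summits of the lists were 2220 bases apart, with 16 fragments with 10RA and 14 with 1-590.

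At Zfp982, in the chromosome 4 locus, 1 promoter interval with 10RA (26 fragments) was private, and of 2 with 1-590 (24 and 23 fragments) 1 was shared, with an interval with 10RA whose summit was outside the promoter. The Prl2c3 promoter, of a prolactin-family gene, had 20 and 21 fragments at 2 intervals with 10RA and 19 at 1 with 1-590.

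A summit in the promoter or body was found for 1643 genes with 10RA (7.56%), 1056 with 1-590 (4.86%) and 326 in both (1.5%). Of 94 genes in 6 lists of the BAP1 complex, Polycomb subunits, Hoxa genes and their cofactors, stem cell and leukaemia regulators, and tumour suppressors, 7 had one with 10RA, 5 with 1-590 and 1 in both. These shares are near those of all genes. None of the 94 had a promoter summit in either list, beside 0.46% of all genes with 10RA and 0.322% with 1-590. None of the 13 genes of the BAP1 complex and its partners had a summit in the gene, beside the 7.56% and 4.86% above. In lists this short, counts of 0 are near those shares.

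The 7 with 10RA were the Polycomb repressive complex 1 genes Phc2 (15 fragments), Phc3 (18) and Kdm2b (14), the Polycomb repressive complex 2 accessory gene Aebp2 (17), the Hox cofactor gene Pbx3 (18 at each of 2 intervals), the ETS repressor gene Etv6 (17) and Nf1. The 5 with 1-590 were the Polycomb repressive complex 1 gene Pcgf6 (15 fragments), the Polycomb repressive complex 2 accessory gene Jarid2 (15), the ETS factor gene Fli1 (15), Bcl11a, which encodes a repressor of fetal globin (16), and Nf1. Nf1, a negative regulator of Ras, had 3 intervals with 10RA (16 to 17 fragments) and 1 with 1-590 (14 fragments), 29914 bases or more apart. All of these intervals were private, had a q above 0.05 and were in none of the 10 other libraries.

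FOXK factors and YY1 are known partners of BAP1, so their core letters were counted at summits on both strands in 301-base windows. GTAAACA was found at 1 of 150 shared intervals with 10RA (0.667%, 0.118 to 3.68) and 6 of 145 with 1-590 (4.14%, 1.91 to 8.73). It was found at 4.40% of private intervals with 10RA (3.85 to 5.03), 5.78% with 1-590 (5.04 to 6.61) and 4.63% of genome windows. CCATNTT was found at 28.0% of shared intervals with 10RA (21.4 to 35.7) and 30.3% with 1-590 (23.4 to 38.3). It was found at 22.8% of private intervals with 10RA, 24.5% with 1-590 and 23.5% of genome windows. Of these 8 shares, that of GTAAACA at private intervals with 1-590 had an interval wholly above the share of the genome windows and that at shared intervals with 10RA one wholly below it. The part of base composition in them was not tested.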

How the data were processed

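The deposited files were lists of ChIP-seq peaks, 1 per library, in mm39 coordinates. Per the submitters' processing notes, peaks came from MACS3 3.0.3, with Bowtie2 2.5.4, fastp 0.24.0, Picard and SAMtools also named. Their settings and any control library are not given in the sources used here. For each peak the authors deposited a score, a fold enrichment at the summit over local background (a ratio), −log10 p and −log10 q values, and the summit position. The −log10 p ranked and filtered intervals within a list. From fold and p the fragments and background at the summit were recovered, as whole fragments within 0.001 at every interval of both lists.

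Peaks of identical start and end were taken as 1 interval with the summit of best p, and intervals were compared by overlap of 1 base or more. Coordinates are GRCm39, counted from 1. The annotation was GENCODE vM39 (21738 protein-coding genes, canonical TSS). Copy number came from 32-base words counted on both strands of the assembly, and tandem structure from 1001 bases at the summit. The 52994 genome windows, 50 kb apart, were treated as summits. Python 3.11.15, numpy 2.4.6, pandas 2.3.3 and scipy 1.17.1 were used. The functions were tested on simulated data, the overlaps against bedtools 2.31.1.

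Named intervals were the 10 shared ones whose worse rank was best, the leading ones among the 8 private of best p in each list and among the 8 of copy number 1, those at promoters in both lists, and members of the 6 gene lists. The intervals, gene lists and comparisons were chosen with earlier results of these data known.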

Additional observations from a re-analysis of the deposited data

Results flagged for a closer look

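Both BAP1 lists also hold intervals on sequences not placed on a chromosome, which no comparison above used. There were 73 with 10RA, of which 53 (72.6%) met an interval with 1-590, and 60 with 1-590, of which 51 (85%) met one with 10RA. Of the 50 best-ranked intervals over all sequences, 31 with 10RA and 26 with 1-590 were on unplaced sequences. These counts were flagged because the comparisons above left such intervals out. No control library is at hand, and the counts were not tested.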

How the results depend on the processing

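Of 106 values from alternative settings, over 21 results, 49 moved by less than their counting error and 57 by more, and none was tested, with 1 library per condition. Shared shares are given for 10RA and then 1-590. They were 14.5% and 25.2% with a q of 0.05 or less, 23.95% and 49.7% at 0.01, 2.61% and 3.45% without intervals of 10 or more copies, and 4.10% and 5.40% over all sequences. Without intervals on a high local background, chosen after the data were seen, they were 2.13% and 2.84%. For the best 500 of each list the share with 10RA was 19.2% without high-copy intervals, 32% over all sequences, 15.8% ranked by fold and 14.6% without high backgrounds. It was 58%, 36.8%, 12.6%, 7.1% and 4.20% at 100, 250, 1000, 2000 and 3572 intervals. In the order shared with 10RA, private with 10RA, private with 1-590, promoter shares were 2.67%, 0.720% and 0.554% at 1 kb, 17.3%, 7.17% and 6.22% at 5 kb, and 21.3%, 9.04% and 7.995% with all genes, whose intergenic shares were 32.7%, 39.1% and 46.1%. At 40 to 45% GC, chosen after the data were seen, the intergenic shares were 46.9%, 62.4% and 60.4%, and promoters held 1.31% of private intervals with 1-590. At a copy number of 100 or more the satellite-rich shares were 0%, 0% and 0%. Among the best 500, private intervals with 10RA were 67.97% intergenic and 1.30% at promoters, satellite-rich shares were 1.04% and 0.256%, and median GC was 45.8% and 33.6%, for private intervals with 10RA and with 1-590. With a q of 0.05 or less, 65.7% of private intervals with 10RA were intergenic and 1.27% of those with 1-590 at promoters. Private values with 10RA and with 1-590 were then 0.453% and 0.316% satellite-rich, 46.2% and 33.4% GC, 14.4% and 3.80% in ASXL1 lists, and 10.4% and 2.22% in H2AK119ub lists, and 96.2% of shared intervals with 10RA were in ASXL1 lists. Among intergenic private intervals the median GC was 44.9% with 10RA and 34.6% with 1-590. The GC alternatives were chosen after the data were seen. The cause of these shifts was not tested, beyond that stricter settings leave fewer and higher intervals. No paired analysis was possible because each condition had 1 library. Depth limits all counts, since the background was 5.46 fragments per base with 10RA and 4.24 with 1-590, and an interval missing from one list may lie below its threshold.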
